A study of Mus musculus with 6 samples.

Results

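The genes followed here are 7 genes that mark arterial or venous endothelium, chosen by name: the arterial genes Efnb2, Gja4, Gja5, Unc5b and Bmx, and the venous genes Nr2f2 and Ephb4. They are 7 of the 24457 genes measured, and all 7 were among the 11717 genes with enough signal to be tested. RNA was sequenced from 3 subsets of thymic endothelial cells (ECs), with 2 libraries per subset and 6 in all. The thymi came from wild-type female C57BL/6 mice aged 4 to 6 weeks, and the labels name no treatment. Cells that were CD31+, CD45- and EpCAM- were sorted to a purity of at least 90% and divided by the surface proteins Ly6C and P-selectin (Selp) into Ly6C+Selp- ECs, Ly6C+Selp+ ECs and Ly6C-Selp+ ECs. The last subset is the one the study proposes as the thymic portal EC, through which blood-borne progenitors enter the organ. The question asked of these genes is how arterial and venous transcripts are spread over the 3 sorted subsets.

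Arteries and veins differ in the genes their endothelium uses before and after blood flow begins. Ephrin-B2, encoded by Efnb2, is a membrane-bound ligand of arterial ECs, and its receptor EphB4, encoded by Ephb4, is the classical venous partner, so that the pair keeps the vessel types apart where they meet. Notch signalling promotes the arterial programme, whereas the nuclear receptor COUP-TFII, encoded by Nr2f2, represses it in veins. In the thymus, progenitors are thought to enter through venules near the corticomedullary junction.

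Expression was deposited as FPKM, a fragment number scaled for transcript length and library depth, so levels can be compared between genes per length. The summed FPKM was 221458 to 300932 per library, and the number of fragments, estimated from the deposited confidence intervals, was 1452476 to 2423171. Endothelial markers were high in every library, with a summed FPKM of 1683 to 2143 over 7 genes. The sum does not show Kdr, which had a mean of 189 FPKM in Ly6C+Selp- and 66.8 in Ly6C-Selp+ ECs (limma, adjusted p = 0.0079). None of the other endothelial markers was called between these subsets. The transcripts of the sorted proteins followed the labels. Selp was at 5.20 to 7.87 FPKM in Ly6C+Selp- ECs, 313 to 416 in Ly6C+Selp+ ECs and 526 to 657 in Ly6C-Selp+ ECs. Ly6c1 was at 692 to 1010, 351 to 522 and 59.7 to 99.6 in the same order. These are bulk samples, in which fewer cells of a type and less RNA per cell cannot be told apart. The labels do not say whether the libraries came from separate mice, so p-values measure the spread between these libraries, which may be technical. Tests were made with limma on log2(FPKM + 1), a scale that understates the change of low genes. An exact permutation test of 2 libraries against 2 cannot give a p below 0.33.

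The 4 arterial genes Efnb2, Gja4, Gja5 and Unc5b fell together from Ly6C+Selp- ECs to Ly6C-Selp+ ECs: the mean FPKM fell 4.76-fold for Efnb2, 9.41-fold for Unc5b and 10.3-fold for Gja4, and that of Gja5 fell to a level set by a few fragments. The fifth, Bmx, was low throughout and had its highest values in Ly6C-Selp+ ECs, a difference that did not pass the test. Of the venous genes, Nr2f2 had a mean 2.59 times as high in Ly6C-Selp+ as in Ly6C+Selp- ECs. It missed the threshold here, while the study's own test lists it as differential. Ephb4 was the most abundant of the 7 genes in every library, with overlapping values between these subsets. Ly6C+Selp+ ECs had intermediate means for the 4 genes that fell and for Nr2f2. As a sum, erythroid markers went the same way as the 4 arterial genes. Over 4 genes it was 58.3 to 116, 21.0 to 44.1 and 0 to 10.9 FPKM in Ly6C+Selp-, Ly6C+Selp+ and Ly6C-Selp+ ECs. Of these Hba-a1, a haemoglobin gene, was called lower in Ly6C-Selp+ against Ly6C+Selp- ECs (55.6 and 43.8 against 0 and 2.84 FPKM, adjusted p = 0.0017). The other 2 tested were not called. Hbb-b1 was uneven, at 0.0642 and 71.1, 36.3 and 12.0, and 0 and 7.82 FPKM in the same order of subsets. Thymocyte markers had a summed FPKM of 24.5 to 82.9, 41.1 to 54.0 and 67.7 to 135.1, and 7 of 7 had a positive log2 difference in Ly6C-Selp+ against Ly6C+Selp- ECs, none of them called. Of the thymocyte markers, the study's own test lists Ptprc and Lck as differential between these subsets, with higher means in Ly6C-Selp+ ECs. The part of erythroid and thymocyte markers in the values of the 7 genes was not tested.

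**Figure D1:**
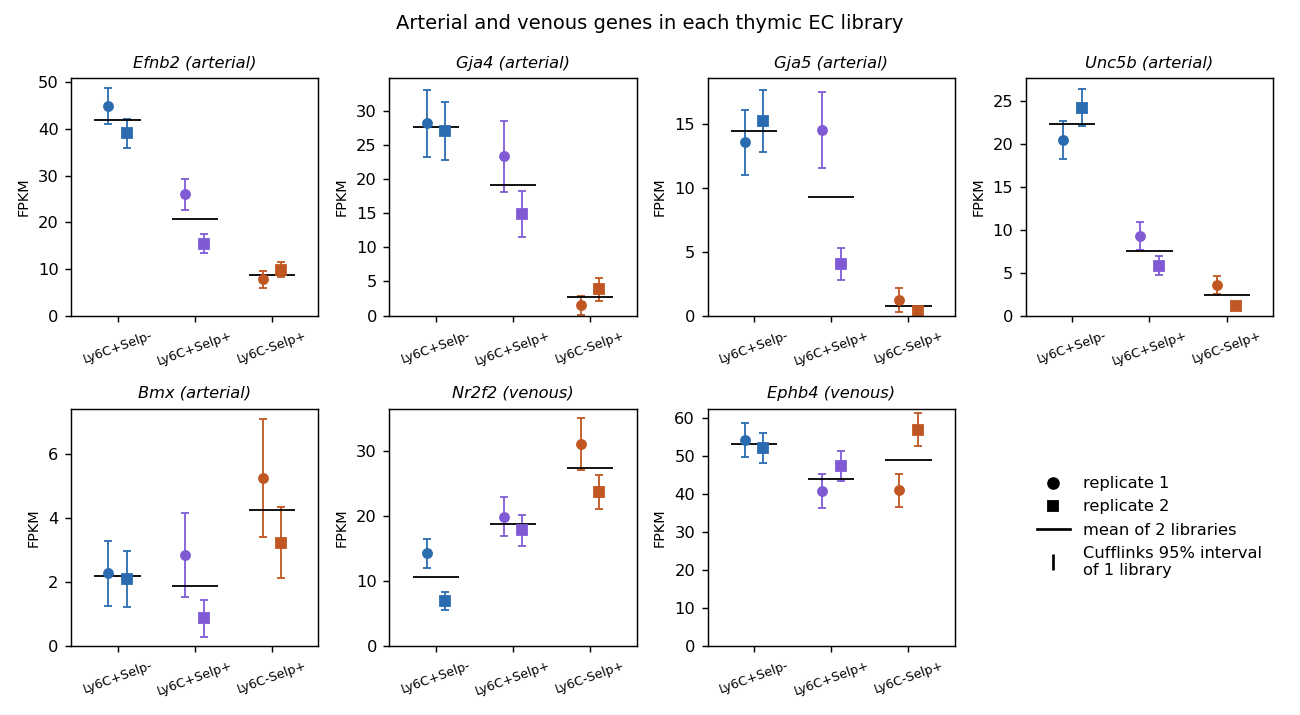
FPKM (y axis, linear, from 0) of each of the 7 genes in the 3 subsets (x axis), with circles for replicate 1, squares for replicate 2, a line at the mean of both and bars for the 95% interval that Cufflinks gave for 1 library. Efnb2, Gja4, Gja5 and Unc5b lie below 10 FPKM in both Ly6C-Selp+ libraries, Nr2f2 is highest there at 23.7 and 31.0, and Ephb4 stays between 40.7 and 56.9 throughout.

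The start regions of the 4 genes that fell are printed because these genes moved together, and that of Bmx because it is the arterial gene that did not. All 7 genes matched a RefSeq promoter (GRCm38.p6, a window of 300 bases that ends 50 bases past the start), and each sequence had 1 exact match in mm9, whose coordinates are given. Each is written 5′ to 3′ on the strand of its gene, and capitals mark a match to 1 of 4 motifs searched on both strands: TGGGAA (the core bound by RBPJ, the DNA-binding partner of Notch), ACAATG (bound by SOX factors), AGGTCA (the site of a nuclear receptor monomer) and CACGTG (an E-box).
Efnb2, chr8:8661193-8661492, minus strand: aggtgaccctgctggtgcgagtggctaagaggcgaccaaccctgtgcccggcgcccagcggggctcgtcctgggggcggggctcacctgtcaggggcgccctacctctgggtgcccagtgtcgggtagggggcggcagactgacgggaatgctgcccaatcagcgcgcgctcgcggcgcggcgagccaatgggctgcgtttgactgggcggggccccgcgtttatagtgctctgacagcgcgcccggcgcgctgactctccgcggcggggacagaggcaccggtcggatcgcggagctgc
Gja4, chr4:126991234-126991533, minus strand: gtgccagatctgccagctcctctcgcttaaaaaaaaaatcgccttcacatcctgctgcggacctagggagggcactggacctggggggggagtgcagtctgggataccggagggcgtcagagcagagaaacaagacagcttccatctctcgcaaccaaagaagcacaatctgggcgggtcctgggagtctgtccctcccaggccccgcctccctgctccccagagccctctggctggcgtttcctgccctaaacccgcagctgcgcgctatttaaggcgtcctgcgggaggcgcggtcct
Gja5, chr3:96836075-96836374, plus strand: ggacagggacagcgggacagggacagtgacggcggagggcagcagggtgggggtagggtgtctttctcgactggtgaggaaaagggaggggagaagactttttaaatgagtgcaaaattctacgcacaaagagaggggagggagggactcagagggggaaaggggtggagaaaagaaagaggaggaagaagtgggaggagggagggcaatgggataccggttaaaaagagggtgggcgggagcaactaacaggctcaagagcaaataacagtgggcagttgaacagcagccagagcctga
Unc5b, chr10:60294280-60294579, minus strand: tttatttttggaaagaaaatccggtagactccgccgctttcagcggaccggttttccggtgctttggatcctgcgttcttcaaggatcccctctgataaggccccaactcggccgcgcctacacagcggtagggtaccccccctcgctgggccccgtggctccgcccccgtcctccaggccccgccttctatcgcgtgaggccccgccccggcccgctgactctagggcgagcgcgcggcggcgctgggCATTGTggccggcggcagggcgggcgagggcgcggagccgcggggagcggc
Bmx, chrX:160696076-160696375, minus strand: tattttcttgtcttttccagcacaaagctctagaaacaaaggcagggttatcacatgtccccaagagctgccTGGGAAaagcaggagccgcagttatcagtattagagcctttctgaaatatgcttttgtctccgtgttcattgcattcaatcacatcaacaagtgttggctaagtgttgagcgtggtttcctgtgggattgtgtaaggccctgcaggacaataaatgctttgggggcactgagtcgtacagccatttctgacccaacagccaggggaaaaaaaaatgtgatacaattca
The windows differed widely in composition. The GC content was 72.3% with 35 CpG in Efnb2 and 69.7% with 36 CpG in Unc5b, 62.0% with 16 CpG in Gja4 and 55.7% with 7 CpG in Gja5, against 44.7% with 4 CpG in Bmx. Over the 32544 promoters of the table the median was 53.0% with 7 CpG. TGGGAA was found in 1 of the 7 windows, that of Bmx, from position -178 relative to the start, and in 25.4% of all promoters. ACAATG was found in 1, that of Unc5b, on the opposite strand from position -1 (read as CATTGT on the gene's strand), and in 12.4% of all promoters. No window held AGGTCA or CACGTG, which 16.2% and 7.17% of all promoters held. The windows of Nr2f2 and Ephb4, with 49.7% and 64.7% GC, held none of the 4. The motifs do not overlap one another in these windows. The RefSeq start of Efnb2 lies 469 bases upstream of the end of the gene's region in the files, while the other 6 coincide with it.

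Efnb2 and Ephb4, the ligand and the receptor, did not move together. Efnb2 (chr8:8617439-8660773, minus strand, coordinates of the files on mm9) was at 44.9 and 39.1 FPKM in Ly6C+Selp- ECs, 26.0 and 15.4 in Ly6C+Selp+ ECs, then 7.77 and 9.86 in Ly6C-Selp+ ECs. No library of one subset overlapped with another subset, and the means stepped down from 42.0 ± 4.12 to 20.7 ± 7.49 and 8.82 ± 1.48 FPKM (SD, n = 2). Efnb2 fell in Ly6C-Selp+ against Ly6C+Selp- ECs, by 2.14 on the log2 scale of FPKM + 1 (SE 0.31, adjusted p = 0.0053). Its mean FPKM, without that added 1, was 4.76-fold lower. The steps on either side of the middle subset, -1.03 (adjusted p = 0.33) and -1.11 (adjusted p = 0.24), did not pass the test. Ephb4 (chr5:137791337-137815750, plus strand) was at 54.2 and 52.1, 40.7 and 47.2, and 40.9 and 56.9 FPKM in the same order of subsets. Its Ly6C-Selp+ libraries lay on both sides of those of Ly6C+Selp- ECs. The log2 difference between these subsets was -0.14, with a 95% interval of -0.71 to 0.44 (adjusted p = 0.90). A fall of more than 0.71 or a rise of more than 0.44 on the log2 scale thus lies outside the interval, and smaller changes do not.

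Within a library, where depth and scaling cancel, Efnb2 reached 0.829 and 0.750 of the FPKM of Ephb4 in Ly6C+Selp- ECs. Ly6C+Selp+ ECs had ratios of 0.639 and 0.326, and Ly6C-Selp+ ECs of 0.190 and 0.173. So the receptor exceeded the ligand in all 6 libraries, and the gap was widest in Ly6C-Selp+ ECs.

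Among the other members of this family, Efnb1 was the ephrin of highest mean level and the only one called. It was at 55.6 and 47.2, 33.0 and 29.4, and 22.0 and 26.0 FPKM, with a log2 change of -1.07 in Ly6C-Selp+ against Ly6C+Selp- ECs (adjusted p = 0.045). That call was lost on leaving out any 1 of the 6 libraries. Of 7 further ephrins 4 were tested, and their median log2 change was -0.28. Of 13 further Eph receptors 6 were tested and none passed, with a median of -0.71. Epha2, the highest of them, was at 16.8 and 22.7, 12.4 and 18.4, and 13.4 and 15.3 FPKM, so that Ly6C+Selp+ ECs overlapped with both other subsets and the outer subsets did not overlap (log2 difference -0.43, adjusted p = 0.64). After scaling of the libraries by median of ratios, or with the replicate number as a block, 2 of these receptors were called lower. Epha4 is listed as differential between the outer subsets by the study's own test, with a lower mean in Ly6C-Selp+ ECs.

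Gja4 and Gja5 encode connexin 37 and connexin 40, the gap junction proteins that couple arterial ECs. Gja4 (chr4:126988664-126991283, minus strand) was at 28.1 and 27.0 FPKM in Ly6C+Selp- ECs, 23.3 and 14.9 in Ly6C+Selp+ ECs, then 1.51 and 3.83 in Ly6C-Selp+ ECs. Both subsets with Ly6C were well above the third, in which the values rest on about 5 and 22 fragments. Gja4 fell by 3.04 on the log2 scale in Ly6C-Selp+ against Ly6C+Selp- ECs (SE 0.37, adjusted p = 0.0022), from a mean of 27.6 ± 0.795 to 2.67 ± 1.65 FPKM (SD, n = 2), 10.3-fold. It also fell against Ly6C+Selp+ ECs, by 2.50 (SE 0.37, adjusted p = 0.0436), and was the only one of the 7 genes called in that comparison. That call did not hold with a pseudocount of 0.1 (adjusted p = 0.065), without the filter on low values (0.21), without Ly6C+Selp+ replicate 1 (0.24) or without Ly6C-Selp+ replicate 1 (0.18). For Ly6C+Selp+ relative to Ly6C+Selp- ECs the log2 difference was -0.54, with a 95% interval of -1.38 to 0.30 (adjusted p = 0.87).

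Gja5 (chr3:96836325-96857557, plus strand) was at 13.6 and 15.3 FPKM in Ly6C+Selp- ECs, 14.5 and 4.05 in Ly6C+Selp+ ECs, then 1.22 and 0.354 in Ly6C-Selp+ ECs. The Ly6C+Selp+ replicates disagreed, 1 of them lying among the Ly6C+Selp- libraries and the other well below. In Ly6C-Selp+ ECs the values rest on about 6 and 3 fragments, and the deposited interval of the lower one reaches 0. That value of 0.354 FPKM is no higher than the level of 3 fragments in its library, 0.358, so no fold is given. Gja5 fell by 3.15 on the log2 scale between the outer subsets (SE 0.51, adjusted p = 0.0092), from 14.4 ± 1.20 to 0.786 ± 0.612 FPKM. The adjusted p was 0.0568 without the filter on low values and 0.0505 without Ly6C+Selp- replicate 2. Against Ly6C+Selp+ ECs the log2 difference was -2.35 (adjusted p = 0.13), and it was called without Ly6C+Selp+ replicate 2 (-3.16, adjusted p = 0.030) and with the replicate number as a block (adjusted p = 0.032).

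The endothelial connexin without arterial restriction, Gja1 (connexin 43), did not share this pattern: it was the connexin of highest mean level, at 151 and 105, 148 and 126, and 148 and 127 FPKM, and its log2 difference between the outer subsets was 0.12 (adjusted p = 0.91). Of 18 further connexins, 2 had enough signal to be tested, neither was called, and 9 were listed at 0 in all 6 libraries. Pericyte and smooth muscle markers, which belong to the mural cells that cover blood vessels, had a summed FPKM of 170.5 to 239 in Ly6C-Selp+ ECs, 199.5 to 495 in Ly6C+Selp- ECs and 406 to 522 in Ly6C+Selp+ ECs over 8 genes, so that the outer subsets overlapped. Pdgfrb was called lower in Ly6C-Selp+ against Ly6C+Selp- ECs (39.0 and 24.2 against 6.40 and 9.43 FPKM, adjusted p = 0.013) and Tagln higher (log2 change 1.60, adjusted p = 0.011). Their part in the connexin values was not tested.

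Unc5b encodes a netrin receptor that is found on arterial ECs and on the tip cells of growing vessels. It (chr10:60225343-60294329, minus strand) was at 20.4 and 24.2 FPKM in Ly6C+Selp- ECs, 9.25 and 5.83 in Ly6C+Selp+ ECs, then 3.61 and 1.14 in Ly6C-Selp+ ECs. As with Efnb2, the 3 subsets formed separate steps. In Ly6C-Selp+ ECs the values rest on about 46 and 25 fragments. Unc5b fell by 2.89 on the log2 scale between the outer subsets (SE 0.41, adjusted p = 0.0048), from 22.3 ± 2.67 to 2.37 ± 1.74 FPKM (SD, n = 2), 9.41-fold. The steps to and from the middle subset, -1.47 and -1.41, did not pass the test (adjusted p = 0.26 each). Of 12 other netrin receptors and ligands 8 were tested. Flrt3, which encodes a ligand of Unc5 receptors, rose from 0.252 and 0.0674 FPKM in Ly6C+Selp- ECs to 5.06 and 4.02 in Ly6C-Selp+ ECs (log2 change 2.25, adjusted p = 0.0097), and was 1.22 and 0.744 in Ly6C+Selp+ ECs. That call was lost without Ly6C+Selp- replicate 2 and without Ly6C-Selp+ replicate 1, and with the replicate number as a block 2 of the 8 were called higher. Robo4, an endothelial receptor related to the Robo family of guidance receptors that binds Unc5b, had the highest level of the list, at 104 and 117, 81.7 and 94.7, and 82.6 and 100.3 FPKM, and was not called.

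Bmx, a TEC family kinase used as a marker of arterial ECs, was the arterial gene without the decline. It (chrX:160630774-160696125, minus strand) was at 2.27 and 2.09 FPKM in Ly6C+Selp- ECs, 2.85 and 0.863 in Ly6C+Selp+ ECs, then 5.24 and 3.23 in Ly6C-Selp+ ECs. Both Ly6C-Selp+ libraries were above the other 4, but at this level each value rests on 9 to 34 fragments. The log2 difference between the outer subsets was 0.69, with a 95% interval of -0.28 to 1.66 (adjusted p = 0.58), and that against Ly6C+Selp+ ECs was 0.94 (-0.03 to 1.91, adjusted p = 0.52). Myeloid markers were at a summed FPKM of 29.6 to 219 in Ly6C+Selp- ECs, 31.7 to 79.0 in Ly6C+Selp+ ECs and 63.8 to 367 in Ly6C-Selp+ ECs over 5 genes, with the highest value in the library where Bmx was highest. Their part in the Bmx values was not tested.

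Nr2f2 ran opposite to the 4 falling genes in its means. It (chr7:77496836-77511632, minus strand) was at 14.2 and 6.93 FPKM in Ly6C+Selp- ECs, 19.9 and 17.7 in Ly6C+Selp+ ECs, then 31.0 and 23.7 in Ly6C-Selp+ ECs. No 2 subsets overlapped, and the means were 10.6 ± 5.15, 18.8 ± 1.51 and 27.4 ± 5.21 FPKM (SD, n = 2), a ratio of 2.59 between the outer subsets. The log2 difference of 1.36 (SE 0.34, 95% interval 0.58 to 2.13) missed the threshold (adjusted p = 0.068), and over the 11 alternative settings the adjusted p ran from 0.0099 to 0.368. It passed after scaling of the libraries by median of ratios (0.018), after quantile normalization (0.020), with the replicate number as a block (0.0099) and without Ly6C+Selp- replicate 1 (0.016, log2 difference 1.83). Between the outer subsets, the study's own test of the reads (Cuffdiff) lists Nr2f2 as differential, along with the 4 falling genes. The limma difference of Nr2f2 was 0.85 in Ly6C+Selp+ against Ly6C+Selp- ECs (adjusted p = 0.60). It was 0.51 in Ly6C-Selp+ against Ly6C+Selp+ ECs (adjusted p = 0.70). Nr2f2 is also expressed by lymphatic ECs, and lymphatic markers were at a summed FPKM of 1.92 to 3.83, 2.85 to 5.17 and 6.19 to 20.6 over 3 genes in the same order of subsets. Prox1, which defines lymphatic ECs, was at 0.324 and 0.519, 0.534 and 1.09, and 3.05 and 3.22 FPKM, and Lyve1 at 0 and 0, 0 and 0.112, and 12.4 and 1.08. The third, Pdpn, was at 3.50 and 1.40, 4.64 and 1.64, and 5.18 and 1.90, and all subsets overlapped. None of the 3 was called by limma, and 1 of them was called higher with the replicate number as a block. Lyve1 is listed as differential between the outer subsets by the study's own test. By flow cytometry the paper found the sorted population negative for podoplanin, and considered it unlikely to contain lymphatic ECs. The part of lymphatic markers in the Nr2f2 values was not tested. Neither relative of Nr2f2 nor its cofactor Zfpm2 was called by limma, and 1 of the 3 was called higher with the block. Zfpm2 is listed as differential between the outer subsets by the study's own test. Nr2f6, the highest of the COUP-TF list, was at 18.5 and 13.8, 15.0 and 13.9, and 18.1 and 21.7 FPKM.

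Set against Nr2f2 within each library, Efnb2 was 3.16 and 5.64 times as abundant in Ly6C+Selp- ECs. Ly6C+Selp+ ECs had ratios of 1.31 and 0.868, and Ly6C-Selp+ ECs of 0.251 and 0.417. It thus stood above 1 in both Ly6C+Selp- libraries and below 1 in both Ly6C-Selp+ libraries, with the middle subset on either side of 1. For Unc5b over Nr2f2 the ratios were 1.44 and 3.49, 0.466 and 0.329, and 0.116 and 0.0482. The summed FPKM of the 5 arterial genes was 107.7 to 109.3, 41.0 to 76.0 and 18.4 to 19.3, whereas that of both venous genes was 59.0 to 68.4, 60.6 to 65.0 and 71.9 to 80.5.

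**Figure D2:**
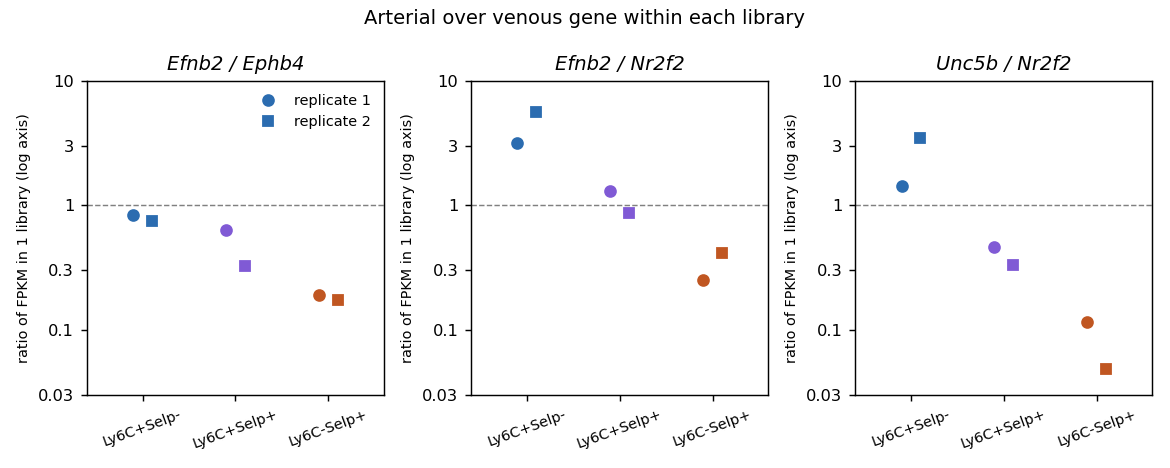
Ratio of the FPKM of an arterial gene to that of a venous gene in the same library (y axis, log scale, dashed line at 1) for the 3 subsets (x axis), with circles for replicate 1 and squares for replicate 2. Efnb2 over Ephb4 drops from 0.829 and 0.750 to 0.190 and 0.173 but is below 1 in all libraries, while Efnb2 over Nr2f2 and Unc5b over Nr2f2 pass from above 1 in Ly6C+Selp- ECs to below 1 in Ly6C-Selp+ ECs.

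The order of levels changed accordingly. In Ly6C+Selp- ECs the means ran from Ephb4 (53.1 FPKM) through Efnb2, Gja4, Unc5b, Gja5 and Nr2f2 to Bmx (2.18 FPKM). Here the libraries of Gja4 and Unc5b did not overlap, but those of Gja5 and Nr2f2 did. In Ly6C-Selp+ ECs Nr2f2 had moved from the sixth place to the second, Bmx to the fourth, and Gja5 was last. There, Ephb4, Nr2f2 and Efnb2 formed separate steps, whereas below them Bmx overlapped with Gja4, Gja4 with Unc5b and Unc5b with Gja5. In Ly6C+Selp+ ECs Ephb4 stood alone at the top, Efnb2, Gja4 and Nr2f2 overlapped with one another, Gja5 overlapped with Unc5b, and Bmx was below all others.

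In Ly6C-Selp+ against Ly6C+Selp- ECs, 4 of the 7 genes were called, all lower, where 4.14% of all genes tested were called, 2.09% higher and 2.05% lower. Libraries of these subsets did not overlap for 6 of the 7, against 37.9% of all genes. In Ly6C+Selp+ against Ly6C+Selp- ECs limma called none of the 7 (3 had an unadjusted p under 0.05), where 0.393% of all genes were called, 0.324% higher and 0.0683% lower, and 5 did not overlap, against 33.6%. In Ly6C-Selp+ against Ly6C+Selp+ ECs 1 of the 7 was called, and lower, where 0.222% of all genes were called, 0.0939% higher and 0.128% lower, and 6 did not overlap, against 41.0%. With the replicate number as a block, 5, 0 and 2 of the 7 were called in the 3 comparisons, where 8.29%, 1.56% and 1.95% of all genes were. Each pair of these comparisons shares a subset, so they are not independent of each other. Of all genes, 38 were called higher and 8 lower in Ly6C+Selp+ against Ly6C+Selp- ECs, and 11 higher and 15 lower in Ly6C-Selp+ against Ly6C+Selp+ ECs. After scaling by median of ratios these splits were 66 and 29, and 23 and 61. The median log2 change of all genes was 0.08, -0.06 and 0.14 in the 3 comparisons as listed. Relative to the last of these, Gja4 changed by -2.63, and the value of Efnb2, which was not called, was -1.24.

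**Figure D3:**
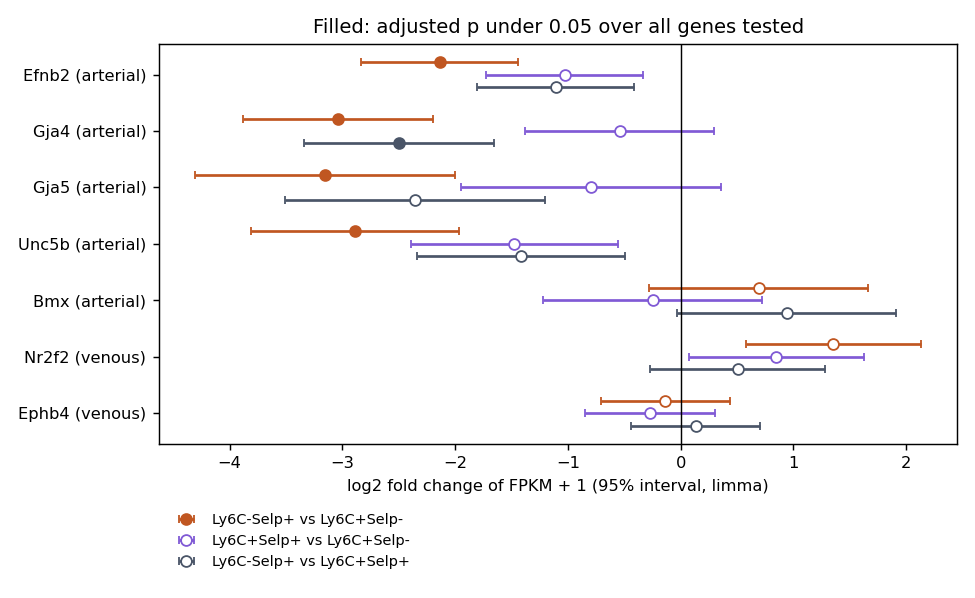
Log2 fold change of FPKM + 1 (x axis) of the 7 genes (y axis) in the 3 comparisons, with 95% intervals from limma and filled points where the adjusted p over all genes tested was under 0.05. The 4 filled points between the outer subsets lie between -3.15 and -2.14 (Efnb2, Gja4, Gja5, Unc5b), Gja4 also has a filled point at -2.50 in Ly6C-Selp+ against Ly6C+Selp+ ECs, and the intervals of Bmx and Ephb4 between the outer subsets include 0.

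Where Ly6C+Selp+ ECs stood on the way from Ly6C+Selp- ECs (0) to Ly6C-Selp+ ECs (1) differed between the genes. On the log2 scale the mean of Gja4 stood at 0.18 of the way and that of Gja5 at 0.25, both nearer to Ly6C+Selp- ECs. The single libraries of Gja5 stood at about 0 and at 0.51, so among these connexins both libraries were nearer for Gja4 only. Efnb2 stood at 0.48 and Unc5b at 0.51, and Nr2f2 at 0.63. The single libraries of Ly6C+Selp+ ECs spread over 0.08 to 0.28 for Gja4, 0.31 to 0.65 for Efnb2 and 0.41 to 0.61 for Unc5b, so Gja4 did not overlap with Efnb2 or Unc5b, while Gja5 overlapped with all 3. The difference between the genes was not tested. In Ly6C+Selp+ ECs all 5 arterial genes were lower in replicate 2 than in replicate 1, as was Nr2f2, while Ephb4 was higher there. For Bmx and Ephb4 the middle subset did not lie between the others.

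Other arterial genes, a list of 15 genes of the Notch pathway, its targets and further arterial markers, were lower in part. Of the 15, 7 were called lower in Ly6C-Selp+ against Ly6C+Selp- ECs and none higher, and 3 had a positive log2 difference. The median log2 change was -0.67, against 0.08 over all genes tested. Sema3g, a semaphorin of arterial ECs, was at 76.7 and 84.4 FPKM in Ly6C+Selp- ECs, 32.8 and 23.2 in Ly6C+Selp+ ECs, then 1.40 and 0.965 in Ly6C-Selp+ ECs (log2 change -5.23, adjusted p = 3.0e-05). It was also the only gene of the list called in Ly6C-Selp+ against Ly6C+Selp+ ECs (-3.72, adjusted p = 0.0026). Hey1, a transcriptional repressor induced by Notch, fell by 2.94 on the log2 scale (adjusted p = 0.0057), the endothelial receptor Notch4 fell by 2.36 (adjusted p = 0.00078) and the Notch ligand Jag2 fell by 2.24 (adjusted p = 0.0018). The other 3, named after their values were seen, were the transcription factor Sox17, the VEGF and semaphorin co-receptor Nrp1 and the Notch ligand Dll4, with changes of -1.65, -1.51 and -1.41. As for Bmx, some markers of the list did not go down. Mgp, which encodes a matrix protein that inhibits calcification, had the highest level of the list. It was at 203 and 120, 393 and 173, and 379 and 341 FPKM (log2 difference 1.20, adjusted p = 0.17). Fbln5, also named after its values were seen, was at 24.7 and 26.4, 19.5 and 25.8, and 51.7 and 55.3 FPKM (log2 difference 1.04, adjusted p = 0.056). The study's own test lists Mgp and Fbln5 as differential between the outer subsets, with higher means in Ly6C-Selp+ ECs. Without Ly6C-Selp+ replicate 1 the number that fell was 4. With the replicate number as a block, 7 fell and 2 rose, and in Ly6C-Selp+ against Ly6C+Selp+ ECs 3 fell and 1 rose.

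Other venous genes, a list of 11, split into a group that rose steeply and a group that did not. Ackr1, an atypical chemokine receptor of venules, rose from 2.00 and 2.67 FPKM in Ly6C+Selp- ECs to 306 and 298 in Ly6C-Selp+ ECs (log2 change 6.51, adjusted p = 3.5e-06). Vwf, von Willebrand factor and the gene of highest mean level, was at 14.9 and 18.5, 164 and 259, and 669 and 1095 FPKM (5.60, adjusted p = 3.8e-05). The adhesion molecule Sele rose by 4.58 (adjusted p = 3.0e-05) and the secreted glycoprotein Lrg1 by 3.81 (adjusted p = 1.0e-04). Of the 11, 5 rose and 1 fell, with a median of 0.38. The remaining riser was the adhesion molecule Vcam1 and the one that fell was Aplnr, the apelin receptor of venous ECs (log2 change -1.98, adjusted p = 0.0022), both named after their values were seen. Several risers are also known to be induced in activated endothelium, and a part of activation was not tested. The genes of the list that were not called are given for contrast. Nr2f1, the paralog of Nr2f2, differed by -0.10 and Nrp2, a venous and lymphatic co-receptor, by 0.36. Flt4, Emcn and Dab2 differed by -1.06, 0.38 and -0.10. Of these, Flt4 is listed as differential between the outer subsets by the study's own test. In Ly6C+Selp+ against Ly6C+Selp- ECs 4 of the 11 rose, and none of the 15 other arterial genes was called. With the replicate number as a block, 5 of the 11 rose and 1 fell in this comparison, and 3 of the 15 fell. The block gave, in Ly6C-Selp+ against Ly6C+Selp- ECs, 5 venous genes that rose and 2 that fell.

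**Figure D4:**
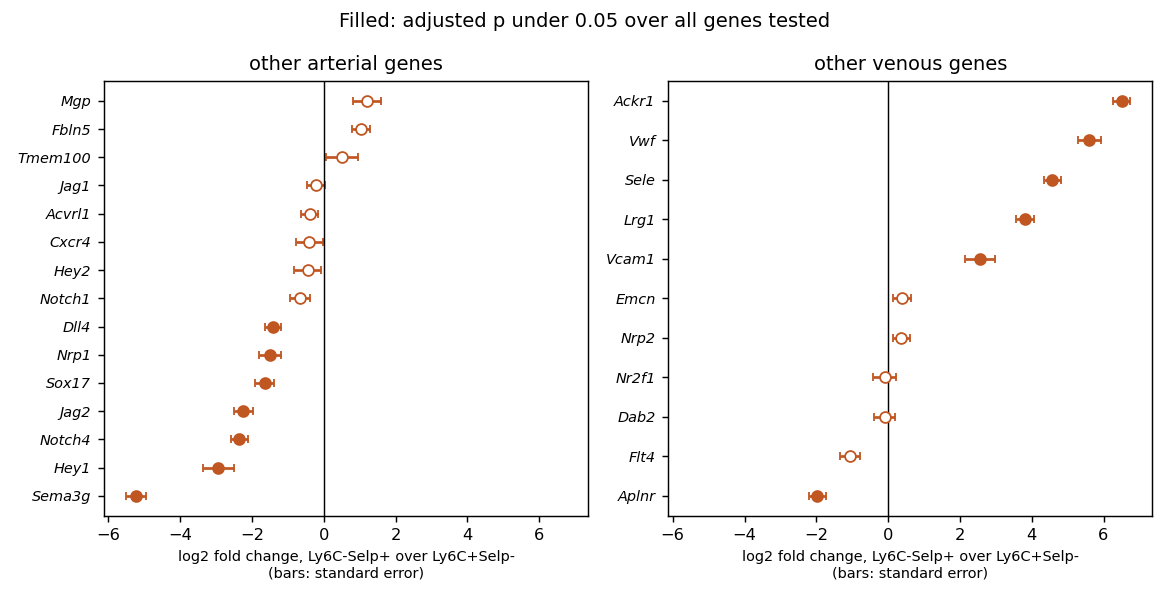
Log2 fold change of Ly6C-Selp+ over Ly6C+Selp- ECs (x axis, bars: standard error) of the other arterial genes (left, 15) and the other venous genes (right, 11), filled where the adjusted p over all genes tested was under 0.05. The 7 filled arterial genes lie from -5.23 (Sema3g) to -1.41 (Dll4), and of the 6 filled venous genes 5 lie to the right of 0 and Aplnr lies at -1.98.

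The genes whose pattern over the 6 libraries was most like that of each member were sought among 4196 genes with a mean of at least 10 FPKM. Likeness was the Pearson r of log2(FPKM + 1), given as a description with no p, since libraries of a subset share its mean. For Efnb2 the 3 nearest were Filip1 (0.9997), N4bp3 and Spred2, for Gja4 they were Akap12 (0.9904), Tanc1 and Uaca, and for Gja5 Itih5 (0.9746), Clic5 and St6galnac2. Unc5b was nearest to Cd97 (0.9892), Slc6a6 and Esm1. Filip1 went from a mean of 21.8 to 15.3 and 10.3 FPKM over the subsets, a shallower course than that of Efnb2, and Esm1, which encodes a proteoglycan of angiogenic ECs, from 35.9 to 10.5 and 1.66. Bmx was nearest to Mvb12a (0.9994), Aprt and Becn1, genes expressed in most cell types. For Nr2f2 they were Sirpa (0.9974), Gem and Entpd1, and Sirpa went from a mean of 10.8 to 27.2 and 58.0 FPKM. Ephb4 was nearest to Klf2 (0.9917), Zc3h18 and Tie1, of which Klf2, a transcription factor of ECs under flow, went from 187 to 132 and 161 FPKM.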

How the data were processed

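RNA of CD31+CD45-EpCAM- thymic cells was sequenced in 6 libraries, 2 for each of 3 subsets, which were grouped by the surface markers in the labels. Per the labels, the authors built the libraries with a NEBNext Ultra kit, called bases with CASAVA 1.8, mapped reads to mm9 with TopHat2 2.0.10 and computed FPKM with Cufflinks 2.1.1 in each library on its own. The gene annotation and the use of strand are not given in the sources used here. They deposited the FPKM of each gene with the bounds of a 95% interval, and no counts. The values are not rescaled between libraries. The study compared subsets with Cuffdiff, which needs the reads.

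Here, log2(FPKM + 1) was taken for 24457 genes on chromosomes. Genes below 1 FPKM in all libraries or all but 1 were left out, and the other 11717 were fitted in R 4.3.3 by limma 3.58.1 (trend on mean expression, two-sided). All 6 libraries entered a single fit, so 1 spread was estimated for the 3 subsets. Benjamini-Hochberg adjustment covered all genes tested in each of the 3 comparisons, and genes with an adjusted p under 0.05 are described as called. In counts over a list of genes, fell and rose mean called lower and called higher. Fragments behind a value were estimated from the width of its deposited interval, as if it held counting error alone, so they are approximate. A count of 3 such fragments corresponds to 0.137 to 0.903 FPKM for the 7 genes, depending on gene and library. That level was chosen as a reference, and lower values, though listed, rest on fewer fragments. In the annotation of the same assembly used here (GENCODE mouse release M1), no other gene shares exonic bases with any of the 7. The limma fit was run on simulated data with changes planted only in genes of higher mean level, so its calls of low genes were not tested. Alternatives were a pseudocount of 0.1, no filter, median-of-ratios scaling, quantile normalization, the replicate number as a block, and each library left out in turn. Replicate numbers were checked by correlating, across genes, the deviations of same-numbered libraries from their subset means. The 3 pairs of subsets gave 0.18 to 0.306, so blocked values are given where they change a call or a count. The lists of other genes were run under the same alternatives, a step added after seeing the data.

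The members and the lists were chosen with earlier results of these data known. Named genes are the 7 members, in each list the genes called in Ly6C-Selp+ against Ly6C+Selp- ECs (at most the 4 of largest change) and the gene of highest mean FPKM, and for each member the 3 genes of most similar pattern. The list of kinases related to Bmx is not reported here. Genes named outside this rule are identified as such or described for contrast. Fibroblast and thymic epithelial markers were also summed, to 99.0 to 165, 170 to 304 and 112 to 114 FPKM, and to 17.0 to 45.4, 17.2 to 21.0 and 11.0 to 41.8 FPKM, in Ly6C+Selp-, Ly6C+Selp+ and Ly6C-Selp+ ECs.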

Additional observations from a re-analysis of the deposited data

How the results depend on the processing

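Of 231 values of the 7 genes recomputed under 11 alternatives, 213 kept their direction and their side of the threshold, 6 lost the call, 6 gained it and 6 turned direction. Efnb2, Gja4 and Unc5b were called lower in Ly6C-Selp+ against Ly6C+Selp- ECs under all 11. The 6 that turned were differences that were not called. In Ly6C+Selp+ against Ly6C+Selp- ECs, leaving out single libraries gave log2 differences of -1.61 to 0.013 for Gja5 and -0.77 to 0.28 for Bmx, above 0 without Ly6C+Selp+ replicate 2. In Ly6C-Selp+ against Ly6C+Selp- ECs, Ephb4 ranged from -0.37 to 0.10 and was above 0 without Ly6C-Selp+ replicate 1. In Ly6C-Selp+ against Ly6C+Selp+ ECs, Ephb4 ranged from -0.10 to 0.37, below 0 without Ly6C-Selp+ replicate 2, and was -0.010 with median-of-ratios scaling and -0.064 with quantile normalization. The cause was not tested.

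The number of all genes called moved more. It was 485 in Ly6C-Selp+ against Ly6C+Selp- ECs, and 317 without the filter on low values, where more genes are tested. In Ly6C+Selp+ against Ly6C+Selp- ECs it was 46, and 12 without the filter, 95 with median-of-ratios scaling (66 higher, 29 lower) and 103 with quantile normalization (73 higher, 30 lower). In Ly6C-Selp+ against Ly6C+Selp+ ECs limma called 26, and 0 without the filter (1354 had an unadjusted p under 0.05), 84 with median-of-ratios scaling and 90 with quantile normalization (22 higher, 68 lower). Of the 7 genes, 1 was called in this last comparison, and 0 with a pseudocount of 0.1 or without the filter. Leaving out 1 library gave 233 to 425, 12 to 46 and 5 to 47 genes in the 3 comparisons, and 3 to 5, 0 and 0 to 2 of the 7, where the remaining library of a subset is assumed to vary like the others. Counts that moved by over 1.5 times were, in the first comparison, 315 without Ly6C+Selp- replicate 2 and 233 and 247 without Ly6C-Selp+ replicates 1 and 2. In the second they were 19 without Ly6C+Selp- replicate 2 and 12 without Ly6C+Selp+ replicate 2. In the third they were 47 and 42 without Ly6C+Selp- replicates 1 and 2, 5 without Ly6C+Selp+ replicate 1, and 5 and 7 without Ly6C-Selp+ replicates 1 and 2.

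Replicates of every subset are numbered 1 and 2, and no label says that a number marks shared mice or a shared day. With the replicate number as a block, 971, 183 and 229 genes were called in the 3 comparisons, and 2 of the 7 in Ly6C-Selp+ against Ly6C+Selp+ ECs (Gja5, adjusted p = 0.032, in addition to Gja4). In Ly6C-Selp+ against Ly6C+Selp- ECs it added Nr2f2 (adjusted p = 0.0099), and it changed no other call of the 7 genes.

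Each subset had 2 libraries, and few fragments lay behind Gja4, Gja5, Unc5b and Bmx in Ly6C-Selp+ ECs. The data thus limit the size of these changes loosely, and each fit of a low gene leans on the pseudocount.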
